A study of Rattus norvegicus with 6 samples.

Results

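NRF2 target genes of redox defense were followed in rat mammary tumors as 10 genes fixed by name, and each was found on 1 row of the 32545 in the table. They are Gclc, Gclm, Slc7a11, Gsr, Txnrd1, Srxn1, Nqo1, Akr1b8, Hmox1 and Osgin1. All 10 lay among the 13631 genes that averaged at least 1 FPKM (a read level per length of gene and per depth of library), Slc7a11 only just, with a mean of 1.03 FPKM that was raised by vehicle tumor 2.

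Expression was measured by RNA sequencing in 6 tumors of female Sprague-Dawley rats that had all received N-methyl-N-nitrosourea (MNU), an alkylating carcinogen that induces mammary tumors, at 50 mg/kg into the peritoneum at 21 days of age. From 1 week later rats received by mouth, on 5 occasions per week over 10 weeks, either corn oil alone as vehicle (100 µL, gavage) or diallyl trisulfide (DATS), a garlic organosulfur compound, dissolved in that oil at 50 mg/kg. There were 3 tumors per group, and the labels do not say whether each is from a different animal. The p-values below therefore measure the spread between these tumors, which may be in part technical. Depth recovered from the values was 13531587 to 16868678 reads per tumor.

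NRF2, encoded by Nfe2l2, is a transcription factor that the adaptor KEAP1 marks for degradation through the CUL3 ubiquitin ligase. Oxidants and electrophiles that react with cysteines of KEAP1 stop this, and NRF2 then pairs with small MAF proteins at antioxidant response elements and raises genes for glutathione supply, thiol reduction and detoxification. DATS has been described as an activator of NRF2 in cultured cells. In tumors the pathway is known both for protecting normal tissue from carcinogens and for protecting cancer cells from oxidative stress.

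The promoters of the genes were examined for sequence that they might share. RefSeq promoters of the GRCr8 assembly, from 250 bases before to 50 after the start, were at hand for 8 of the 10 genes, with 2 starts for Txnrd1, and not for Gsr and Hmox1. The core of the antioxidant response element, TGACNNNGC, was searched on both strands. It lay before the start of 2 genes, Gclm and Txnrd1, and before the start in 10.1% of all 33469 promoters (12.1% over the whole window). In Txnrd1 it lay only at the start printed below, not at the other. The AP-1 site TGANTCA lay at 2 places in the Srxn1 promoter, the second across the start, and in 7.33% of all promoters, and the amino acid response element TGATGNAAN, a binding sequence of ATF4, in none of the 8 genes and in 3.97% of all promoters. The stretches that hold these letters before the start are shown first, with the match in capitals. Both antioxidant response element matches lie on the opposite strand, as TGACTAAGC in Gclm and TGACAAAGC in Txnrd1, and none of the matches overlaps another.
Gclm, chr2:213031917-213032016, plus strand: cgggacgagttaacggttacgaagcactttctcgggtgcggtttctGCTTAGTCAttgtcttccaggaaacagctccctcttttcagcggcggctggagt
Txnrd1, chr7:22755929-22756028, minus strand: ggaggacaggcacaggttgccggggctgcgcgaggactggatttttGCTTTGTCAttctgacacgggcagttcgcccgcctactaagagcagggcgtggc
Srxn1, chr3:161064703-161064802, plus strand: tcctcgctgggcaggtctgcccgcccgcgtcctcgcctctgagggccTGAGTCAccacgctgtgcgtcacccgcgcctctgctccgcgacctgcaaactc

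The last 100 bases before the start follow for 3 genes that ranged widely between tumors (below), and whose promoter windows held none of the 3 sequences searched. No match in this window says nothing of sites farther away.
Akr1b8, chr4:63964321-63964420, plus strand: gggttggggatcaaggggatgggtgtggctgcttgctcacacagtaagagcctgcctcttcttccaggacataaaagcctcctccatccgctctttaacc
Nqo1, chr19:52220268-52220367, minus strand: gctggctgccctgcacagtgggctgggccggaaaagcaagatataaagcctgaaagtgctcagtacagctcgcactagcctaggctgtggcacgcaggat
Osgin1, chr19:64393801-64393900, plus strand: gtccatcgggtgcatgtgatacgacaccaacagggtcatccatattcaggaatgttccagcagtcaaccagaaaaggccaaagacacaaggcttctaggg

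The tissue label was checked first. The luminal keratin Krt8 was at 467 to 1315 FPKM and the epithelial adhesion molecule Epcam at 463 to 704 FPKM in the 6 tumors, so epithelium was present in each. Skeletal muscle RNA stood out in vehicle tumor 1, where the 5 muscle markers on the table summed to 1284 FPKM against 4.49 to 13.4 in the other tumors. Vehicle tumor 2 had the highest T cell marker level, summing to 414 FPKM against 88.8 to 219 elsewhere.

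The level of each gene, per length and as the mean over 6 tumors, spanned a wide range. Gsr and Hmox1 had the highest levels, 56.0 and 50.3 FPKM, but Gsr was above Hmox1 in only 4 of 6 tumors, so their order did not hold across tumors. Txnrd1 followed at 28.1 FPKM, below Hmox1 in 4 of 6 tumors, and lay above Gclm in 6 of 6 tumors. Gclm at 17.7, Osgin1 at 17.4, Gclc at 12.2, Akr1b8 at 10.9 and Nqo1 at 9.23 FPKM were close, and neighbours in that order kept it in 3 to 5 of 6 tumors. Srxn1 at 1.63 and Slc7a11 at 1.03 FPKM were lowest, and Nqo1 lay above Srxn1 in 6 of 6 tumors. Srxn1 rested on 9 to 28 recovered reads per tumor and Slc7a11 on 69 to 301, whereas every other gene had 86 or more in each tumor, so the values of Srxn1 carry the most counting error.

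The genes differed widely in how much they varied between tumors. Akr1b8 and Hmox1 spanned 8.93-fold and 6.50-fold from the lowest to the highest tumor. The SD of their log2 values over the 6 tumors, 1.03 and 1.06, was above that of 95.4% and 95.9% of the genes tested. Gsr and Gclm spanned 1.22-fold and 1.23-fold, and their SDs of 0.11 and 0.12 were above those of 4.96% and 6.13% of genes. For comparison, the median SD over all genes tested was 0.30.

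None of the 10 genes was called different between DATS and vehicle tumors by limma on log2(FPKM + 1), with p-values adjusted by Benjamini-Hochberg over all 13631 genes (adjusted p of 0.819 to 0.987 for the 10 genes). The background was the same: 0 genes, or 0%, were called over the whole table, where 797 genes (5.85%) had an unadjusted p under 0.05, 287 of them lower (2.11%) and 510 higher in DATS (3.74%). Applied to recovered reads, limma-voom likewise gave 0 calls, and 704 genes (5.16%) reached that unadjusted value. Of the 10 genes, 0 had an unadjusted p under 0.05 by either tool with these settings, though some did under alternative settings (last paragraph). The log2 difference, DATS minus vehicle, was below 0 for 9 of the 10 genes on the deposited scale, and for Gsr, the other gene, it turned from 0.025 to -0.15 with equal totals and to -0.064 with quantile normalization. Over all genes tested 50.8% were below and 49.2% above 0. The median difference of the 10 genes was -0.34 against -0.0048 over all genes. Slc7a11, one of those below 0, passed the filter only through its vehicle values (mean 1.36 FPKM, against 0.71 in DATS). With a filter at 5 FPKM, which drops it and Srxn1, 7 of 8 genes were below 0, against 45.7% of all genes. Their median was then -0.28, against 0.029 over all genes. Groups did not overlap for 1 of the 10 genes, Txnrd1, which was lower in DATS, where 5.5% of all genes did so in that direction. The genes are set out below by their role.

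**Figure D1:**
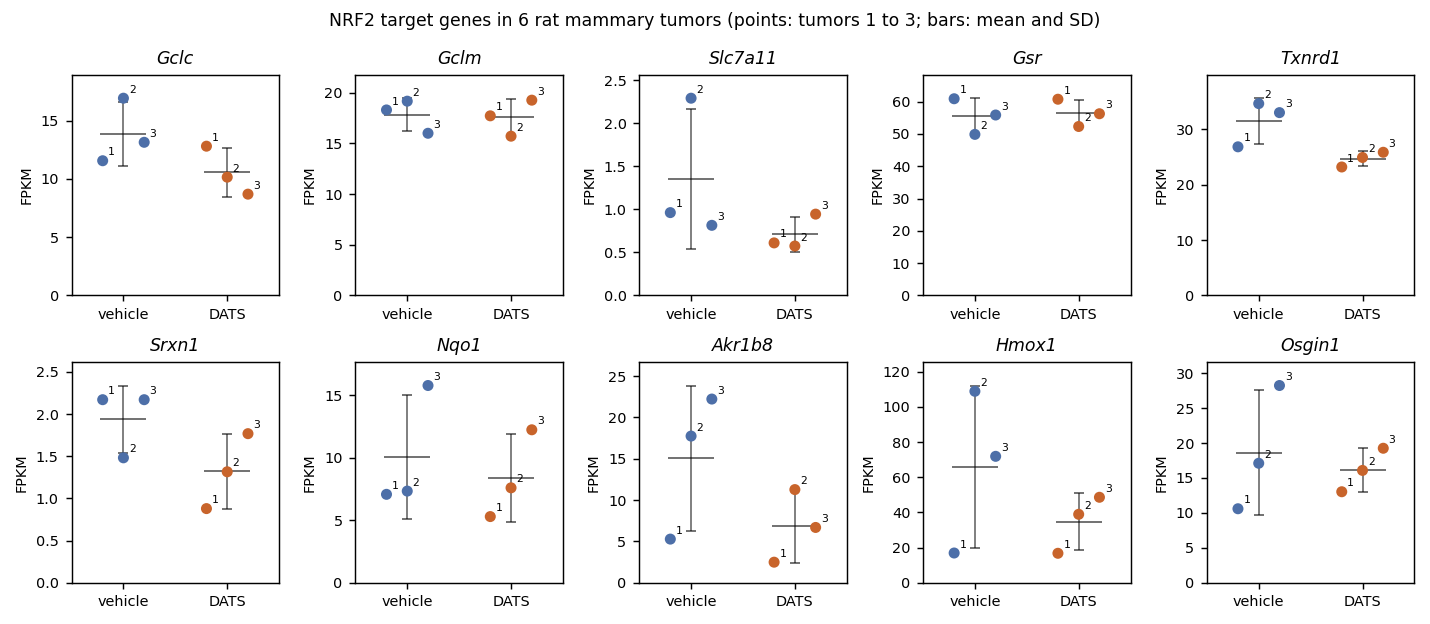
FPKM of the 10 genes (vertical axes from 0, a scale for each gene) in the vehicle and DATS tumors, with points numbered by tumor and bars for the mean and SD (n = 3 each). Txnrd1 is the gene whose groups do not overlap, and Hmox1 and Akr1b8 spread most, from 16.8 to 109 and from 2.49 to 22.2 FPKM.

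Glutathione supply comes first. Gclc, the catalytic subunit of the enzyme that limits glutathione synthesis, was at 11.6, 16.9 and 13.1 FPKM in vehicle tumors 1, 2 and 3 and at 12.8, 10.1 and 8.69 FPKM in DATS tumors 1, 2 and 3. The groups overlapped, with DATS tumor 1 above vehicle tumor 1, and DATS tumors 2 and 3 were the lowest of the 6. Its log2 difference was -0.36 ± 0.21 (SE; 95% interval -0.86 to 0.13; limma adjusted p = 0.835), and -0.22 without vehicle tumor 2. Gclm, the modifier subunit of the same enzyme, was at 18.3, 19.2 and 16.0 FPKM in the vehicle tumors and at 17.7, 15.7 and 19.3 FPKM in the DATS tumors, in the same order. These values interleaved, and the difference was -0.021 ± 0.15, with an interval of -0.37 to 0.33 (limma adjusted p = 0.987).

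Slc7a11, the light chain of the cystine/glutamate exchanger that brings in cystine for glutathione, was at 0.963, 2.29 and 0.815 FPKM in vehicle tumors 1, 2 and 3 and at 0.611, 0.575 and 0.946 FPKM in DATS tumors 1, 2 and 3. Vehicle tumor 2 was more than any other tumor by over 1 FPKM, and the remaining vehicle tumors overlapped with DATS tumor 3. The log2 difference of -0.42 ± 0.32 (limma adjusted p = 0.860) was -0.15 without vehicle tumor 2. On the log2(FPKM + 1) scale a change in a gene this low is understated, and with a pseudocount of 0.1 the difference was -0.74.

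Of the reductases, Txnrd1, the cytosolic thioredoxin reductase, was at 26.8, 34.7 and 33.0 FPKM in vehicle tumors 1, 2 and 3 and at 23.2, 24.9 and 25.9 FPKM in DATS tumors 1, 2 and 3. Every DATS tumor lay below every vehicle tumor, by the narrow margin between DATS tumor 3 and vehicle tumor 1. The vehicle mean was 31.5 ± 4.12 FPKM and the DATS mean 24.7 ± 1.35 FPKM (SD, n = 3). On the log2 scale they differed by -0.33 ± 0.15 (SE; 95% interval -0.69 to 0.019). The unadjusted limma p was 0.0603 and the adjusted p 0.819, and the exact permutation p was 0.1, the smallest that 3 against 3 tumors can give. Txnrd1 had the smallest p of the 10 genes, and its difference stayed between -0.51 and -0.26 over all 14 alternative settings, including those that left out vehicle tumor 1 or 2. With equal totals it was -0.51, with an unadjusted limma p of 0.0189 and an adjusted p of 0.649.

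Gsr, glutathione reductase, was at 60.9, 49.8 and 55.8 FPKM in the vehicle tumors and at 60.7, 52.3 and 56.2 FPKM in the DATS tumors, in the order 1, 2 and 3. The groups covered the same range, and the difference was 0.025 ± 0.14 with an interval of -0.31 to 0.36 (limma adjusted p = 0.985). Srxn1, sulfiredoxin, which restores overoxidized peroxiredoxins, was at 2.17, 1.48 and 2.17 FPKM in vehicle and at 0.879, 1.32 and 1.77 FPKM in DATS tumors 1, 2 and 3. Only DATS tumor 3 reached into the vehicle range. The difference of -0.35 ± 0.26 (limma adjusted p = 0.856) rested on few reads, 9 in DATS tumor 1 and 28 in vehicle tumor 1. It was -0.21 without DATS tumor 1, -0.55 with a pseudocount of 0.1 and -0.57 by limma-voom.

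The detoxifying enzymes of quinones and carbonyls varied more. Nqo1, which reduces quinones directly to hydroquinones, was at 7.08, 7.34 and 15.8 FPKM in vehicle tumors 1, 2 and 3 and at 5.30, 7.60 and 12.2 FPKM in DATS tumors 1, 2 and 3. Tumor 3 of each group was highest, and the groups overlapped. The log2 difference was -0.22 ± 0.39 (limma adjusted p = 0.936), and it turned to 0.13 when vehicle tumor 3 was left out and to 0.035 when DATS tumor 1 was. Leaving out vehicle tumor 1 or 2 made it -0.40 or -0.38.

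Akr1b8, an aldo-keto reductase that reduces reactive aldehydes, was at 5.28, 17.7 and 22.2 FPKM in vehicle tumors 1, 2 and 3 and at 2.49, 11.3 and 6.69 FPKM in DATS tumors 1, 2 and 3. Vehicle tumors 2 and 3 were above all DATS tumors, while vehicle tumor 1 lay below DATS tumors 2 and 3. It had the largest difference of the 10 genes on the deposited scale, -1.02 ± 0.63 (SE; 95% interval -2.54 to 0.51; limma adjusted p = 0.851). Leaving out vehicle tumor 1 made this -1.60, and leaving out vehicle tumor 3 or DATS tumor 1 made it -0.65 or -0.53. With sample weights it was -0.63.

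Hmox1, the inducible heme oxygenase that breaks heme into biliverdin, iron and carbon monoxide, was at 16.9, 109 and 71.9 FPKM in vehicle tumors 1, 2 and 3 and at 16.8, 38.9 and 48.6 FPKM in DATS tumors 1, 2 and 3. Tumor 1 of each group was equally low, and vehicle tumors 2 and 3 were above all DATS tumors. The vehicle mean was 65.9 ± 46.3 FPKM and the DATS mean 34.8 ± 16.3 FPKM (SD, n = 3), but the log2 difference of -0.68 ± 0.73 was smaller than its error (limma adjusted p = 0.887). With 1 tumor left out it ranged from -0.14 without vehicle tumor 2 to -1.45 without vehicle tumor 1, and it was -0.23 without DATS tumor 1.

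Osgin1, an oxidative stress induced growth inhibitor, was at 10.6, 17.1 and 28.2 FPKM in vehicle tumors 1, 2 and 3 and at 13.0, 16.1 and 19.3 FPKM in DATS tumors 1, 2 and 3. All DATS tumors lay within the range of the vehicle tumors. The difference was -0.11 ± 0.35 (limma adjusted p = 0.972), and it was 0.22 without vehicle tumor 3 and -0.44 without vehicle tumor 1.

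**Figure D2:**
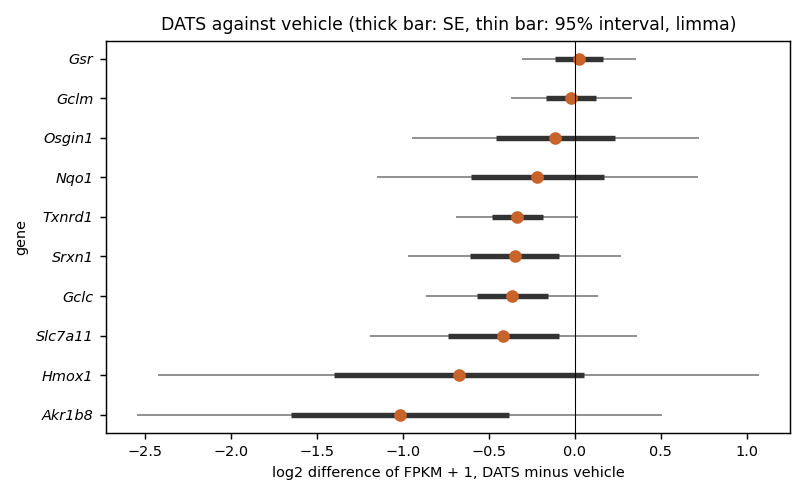
Log2 difference of FPKM + 1, DATS minus vehicle, for each of the 10 genes, with the SE as a thick bar and the 95% interval of limma as a thin bar (n = 3 per group). All intervals include 0, from Akr1b8 at -1.02 to Gsr at 0.025, and Gsr is below 0 with equal totals or quantile normalization.

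Whether the genes vary together was asked over the 6 tumors, with 45 pairs of genes. The median Pearson r of their log2 values was 0.26 against -0.0019 over the 92895265 pairs of all genes tested, and 32 of the 45 were above 0. An r above 0.7 was found for 7 pairs, or 15.6%, against 7.25% of all pairs, and an r below -0.7 for 2 pairs, or 4.44%, against 6.95%. With values centred on the mean of each group, the median was 0.051, against -0.0015 over all pairs, while 9 pairs, or 20%, had an r above 0.7 against 10.5% of all pairs, and 4, or 8.89%, had one below -0.7 against 10.3%. With equal totals it was 0.52, against 0.12 over all pairs. No pair passed Benjamini-Hochberg adjustment over the 45 (lowest adjusted exact permutation p = 0.438 for r and 0.462 for rho). The smallest exact permutation p that 6 tumors can give a pair is 0.00278. A pair alone could therefore not pass this adjustment, whatever its r.

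Of the 7 pairs with r above 0.7, Hmox1, Akr1b8, Txnrd1 and Osgin1 were each in 3. Those of Txnrd1 included its pair with Slc7a11 (r = 0.75), a gene that passed the filter only through its vehicle values. Without vehicle tumor 2 and DATS tumor 2 that r was 0.36. Hmox1 and Akr1b8 had r = 0.88 and rho = 0.89 over the 6 tumors (exact permutation p = 0.0292 and 0.0333, adjusted p = 0.438 and 0.462), with both genes low in tumor 1 of each group and high in vehicle tumors 2 and 3. Their r was 0.86 without vehicle tumor 3 and DATS tumor 1, the tumors farthest from the median of Akr1b8, and 0.88 within groups. Vehicle tumor 1, where both genes were low, was kept when those tumors were left out. Txnrd1 and Akr1b8 had r = 0.85 and rho = 0.71 (exact permutation p = 0.0389 and 0.136, adjusted p = 0.438 and 0.557). This r was 0.84 within groups and 0.48 without vehicle tumors 2 and 3, the tumors farthest from the median of Txnrd1. Txnrd1 and Hmox1 had r = 0.82 and rho = 0.83 (exact permutation p = 0.0597 and 0.0583, adjusted p = 0.448 and 0.462). Their r was 0.99 within groups and 0.20 without vehicle tumors 2 and 3.

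Nqo1 and Osgin1 had r = 0.86 and rho = 0.89 (exact permutation p = 0.025 and 0.0333, adjusted p = 0.438 and 0.462). Tumor 3 of each group was highest for both genes, and without these tumors r was 0.35. Gsr ran opposite to Hmox1, with r = -0.85 and rho = -0.77 (exact permutation p = 0.0361 and 0.103, adjusted p = 0.438 and 0.462), although Gsr itself varied only from 49.8 to 60.9 FPKM. Without vehicle tumors 1 and 2 that r was -0.61. Gclc and Gclm, the subunits of one enzyme, had r = 0.10.

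**Figure D3:**
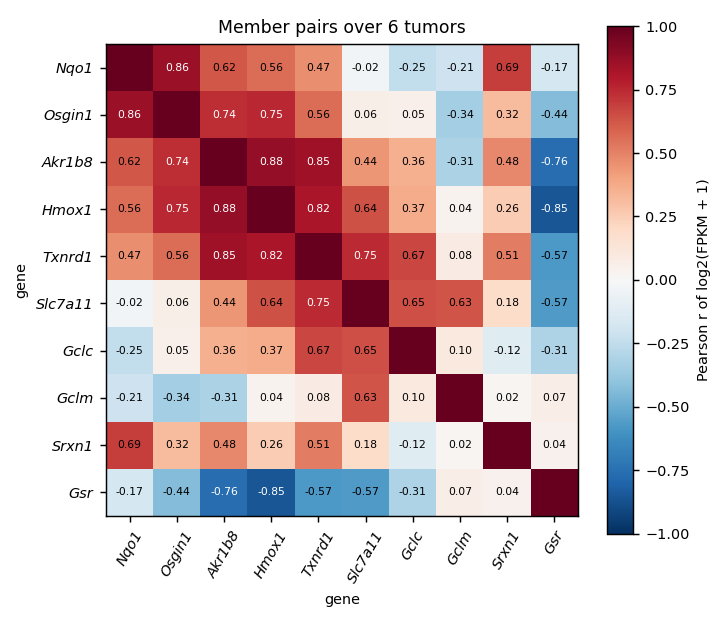
Pearson r of log2(FPKM + 1) over the 6 tumors for each of the 45 pairs of genes, with both axes listing the genes and colour giving r from -1 to 1. Nqo1, Osgin1, Akr1b8, Hmox1 and Txnrd1 form a block of r from 0.47 to 0.88, while Gclm and Gsr lie apart from it.

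**Figure D4:**
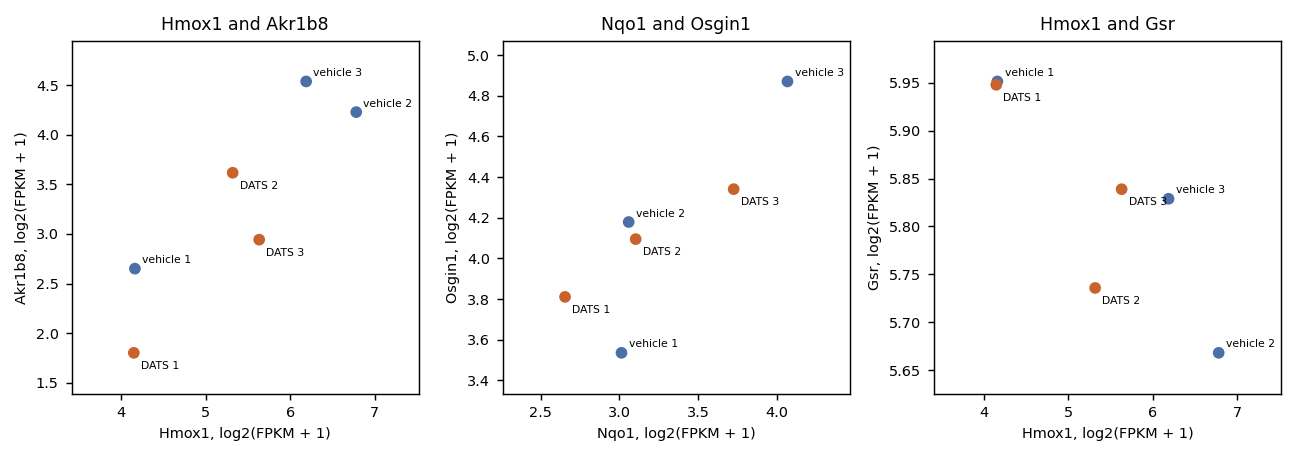
Log2(FPKM + 1) of Hmox1 against Akr1b8, Nqo1 against Osgin1 and Hmox1 against Gsr, each point a tumor (blue vehicle, orange DATS). Hmox1 and Akr1b8 are low in tumor 1 of each group, tumor 3 of each group is highest for Nqo1 and Osgin1, and Gsr is lowest in vehicle tumor 2, where Hmox1 is highest.

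Averaged over the 10 genes, each scaled to its own mean and SD, vehicle tumors 3 and 2 were highest at 0.62 and 0.60, DATS tumor 3 was at 0.078, vehicle tumor 1 at -0.14, and DATS tumors 2 and 1 were lowest at -0.50 and -0.65. DATS tumor 1 was the lowest tumor for 5 of the 10 genes, and vehicle tumors were the highest for 9 of them. Txnrd1 followed the mean of the other 9 genes most closely (r = 0.93, as a description over 6 tumors), and Gsr ran against it (r = -0.60). Among the other genes tested, Cmip, Casp8, Kank2, Rn60_20_0050.7 and Erlin1 were most like the average pattern, with r of 0.98 to 0.99 over 6 tumors. An r above 0.95 was found for 29 of 13621 genes. Taken singly, the gene most like Gclc was SNORA12, most like Gclm Ezh2, most like Slc7a11 Slc35b4, most like Gsr Rad21 and most like Txnrd1 Grk5. For Srxn1 it was Mex3b, for Nqo1 Nkx2-8, for Hmox1 Nfkbiz and for Osgin1 AABR07026893.1. These r ranged from 0.968 for Srxn1 to 0.997 for Hmox1.

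Markers of cell types were set beside these patterns. These were whole tumors, in which fewer cells of a type and less RNA per cell cannot be told apart. Macrophages express Hmox1, and the 11 macrophage markers, 10 of them above the filter and Marco listed at 0 in all tumors but DATS tumor 3, summed to 1099, 3090 and 1725 FPKM in vehicle tumors 1, 2 and 3 and to 1302, 1792 and 2630 FPKM in DATS tumors 1, 2 and 3. Tumor 1 of each group was lowest here as for Hmox1, and vehicle tumor 2 highest, but DATS tumor 3 exceeded vehicle tumor 3. Of the 10 markers above the filter, 5 were lower and 5 higher in DATS. The 4 neutrophil markers summed to 19.1, 177 and 374 FPKM in the vehicle and 92.9, 25.1 and 63.6 FPKM in the DATS tumors, with vehicle tumors 3 and 2 highest as for Akr1b8, but DATS tumor 1, the lowest for Akr1b8, next. Luminal epithelial markers were higher in DATS for 8 of 8 genes, 0 called, with sums of 1996 to 2599 FPKM in vehicle and 2656 to 4327 in DATS tumors. Basal and myoepithelial markers were higher for 7 of 7 genes, with sums of 1049 to 2086 FPKM in vehicle and 1211 to 2612 in DATS tumors. Fibroblast markers were lower for 5 of 6 genes, with sums of 1003 to 1677 FPKM in vehicle and 910 to 1536 in DATS tumors. Immediate early genes, which respond quickly to stress and tissue handling, were higher for 5 of 5 genes (median 0.69), with sums of 248 to 349 FPKM in vehicle and 348 to 637 in DATS tumors. No gene of these lists was called. The part of these cells and of handling in the differences and correlations of the 10 genes was not tested.

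The regulators of the pathway were measured beside its targets. Nfe2l2, which encodes NRF2, was at 89.1, 93.4 and 95.6 FPKM in vehicle and at 90.2, 81.3 and 59.6 FPKM in DATS tumors 1, 2 and 3, with DATS tumor 3 lowest and DATS tumor 1 within the vehicle range. Its log2 difference was -0.28 ± 0.18 (limma adjusted p = 0.851), and -0.11 without DATS tumor 3. Keap1, the repressor, was at 26.8, 27.7 and 30.02 FPKM in vehicle and at 31.0, 34.5 and 35.9 FPKM in DATS tumors, so that every DATS tumor lay above every vehicle tumor, as for 6.72% of all genes. Its difference of 0.25 ± 0.13 was not called (limma adjusted p = 0.819). Of 12 regulators 11 passed the filter, 4 lower and 7 higher in DATS with 0 called, and the median difference was 0.034. Mafg, a small MAF partner, and Sqstm1, the p62 adaptor that binds KEAP1, had differences of -0.011 and 0.034 with overlapping groups, and both changed sign when single tumors were left out. Bach1, a repressor that competes at the same sites, was below the filter, at 0.439 to 0.996 FPKM.

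Further genes of redox defense showed no call in any list and both directions in each. Of 9 partners in glutathione and thiol metabolism 4 were lower and 5 higher, with a median of 0.18. Glrx, glutaredoxin, was at 66.5, 147 and 72.1 FPKM in vehicle and at 54.0, 48.5 and 59.7 FPKM in DATS tumors, without overlap (log2 difference -0.71 ± 0.31, limma adjusted p = 0.819). Vehicle tumor 2 was highest by far, and without it the difference was -0.36. Txnrd2, the mitochondrial thioredoxin reductase, was at 7.19, 10.99 and 10.1 FPKM in vehicle and at 13.6, 11.9 and 13.6 FPKM in DATS tumors, also without overlap but in the opposite direction to Txnrd1 (0.45 ± 0.19, limma adjusted p = 0.819; 0.28 without vehicle tumor 1).

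Of 7 tested genes of conjugation and export 5 were lower and 2 higher (median -0.13, 0 called). Abcc4, an exporter of conjugates, was at 3.10, 2.84 and 3.39 FPKM in vehicle and at 1.18, 1.26 and 1.59 FPKM in DATS tumors, with DATS at about the same low level in each. Its log2 difference of -0.81 ± 0.20 had an unadjusted limma p of 0.00592 and an adjusted p of 0.819. Gsta1, a glutathione transferase, was at 20.8, 55.3 and 49.6 FPKM in vehicle and at 12.9, 34.0 and 14.2 FPKM in DATS tumors, with overlap (-1.02 ± 0.49, limma adjusted p = 0.819).

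The next list held enzymes that make NADPH, the electron source of Gsr, Txnrd1 and Nqo1, or belong to the pentose phosphate pathway. Of its 6 genes 5 were matched and tested, 3 lower and 2 higher in DATS (median -0.056, 0 called). Taldo1, transaldolase of the pentose phosphate pathway, had a difference of 0.14 ± 0.13 (limma adjusted p = 0.876). Of 5 tested genes of heme and iron handling 2 were lower and 3 higher (median 0.013, 0 called). Blvrb, biliverdin reductase B, was at 21.8, 20.9 and 26.1 FPKM in vehicle and at 25.2, 37.3 and 42.4 FPKM in DATS tumors (0.56 ± 0.22, limma adjusted p = 0.819). Hmox2, the constitutive heme oxygenase, had a difference of 0.074 ± 0.13 (limma adjusted p = 0.936), and 0.013 without vehicle tumor 1. Ftl1, the ferritin light chain, ranged from 911 to 2636 FPKM and was lowest in vehicle tumor 1, as Osgin1 was, while Fth1 was listed at 0 in every tumor. How reads of Fth1 were counted is not known, so this 0 was not read as absence of its RNA.

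The ATF4 response, which also drives Slc7a11, was lower for 1 and higher for 7 of 8 genes tested, 0 called, with a median of 0.084. Ddit3 and Chac1, stress genes induced by ATF4, had differences of 0.25 ± 0.25 and 0.49 ± 0.50 (limma adjusted p = 0.879 and 0.880). Without vehicle tumor 1 that of Ddit3 was -0.018. Chac1 was at 6.28 FPKM in DATS tumor 3 against 1.18 to 1.34 in the other tumors, and its difference was -0.088 without that tumor. Slc7a11 was at 0.946 FPKM in that tumor and highest in vehicle tumor 2, where Chac1 was at 1.34 FPKM.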

How the data were processed

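Per the file headers, the authors deposited 1 table of FPKM values per tumor, for genes with rat Ensembl identifiers and symbols. How reads were aligned and counted, and on which build, is not given in the sources used here. Coordinates are those of RefSeq promoters (GRCr8). Reads shared with near-identical copies may have been divided in counting.

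Groups came from the treatment labels. The 10 genes and the gene lists were chosen with earlier results of these data known. Genes with a mean of at least 1 FPKM were kept, and log2(FPKM + 1) was fitted with limma 3.58.1 in R 4.3.3 (mean-variance trend, no term but group, two-sided, Benjamini-Hochberg over all kept genes, threshold 0.05). Pairs were tested by exact permutation over the 720 orders of 6 tumors. Whole reads were recovered from FPKM steps for 20891 genes (100% within a tolerance of 1e-06, for up to 1000 reads) and their common divisor restored in 763. These reads served limma-voom. Recovery and limma fit were tested on simulated data, where reads were recovered exactly for 99.2% of genes. There, limma called 17% of 100 genes given a log2 difference of 1 and 72% of 100 given one of 2, with 7 false calls. FPKM totals, 566304 to 656017 in vehicle and 662528 to 710096 in DATS tumors, show a scaling other than equal totals. Besides the 10 genes, the text names 5 regulators of NRF2, the 2 genes of smallest p in each other pathway list, the 5 genes most like the average and the gene most like each of the 10. Of the genes these rules name, 2 are not reported here. Ftl1 and Fth1 were named after their values were seen. Of 136 list symbols 126 matched directly, 3 by older names and 7 not. Alternatives were another pseudocount, other filters, equal totals, quantile normalization, sample weights, limma-voom, a replicate block and leaving out each tumor. Leaving out tumors for the regulators and pathway genes was added after seeing the data. Permutations and tables were made with scipy 1.17.1 and pandas 2.3.3 in Python 3.11.15, and plots with matplotlib 3.10.9.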

Additional observations from a re-analysis of the deposited data

How the results depend on the processing

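Under the 14 alternatives of the fit, limma called 0 genes (lowest adjusted p of 0.138 to 0.999), and 0 of the 138 values of the 10 genes was called. The median difference of the 10 genes stayed below 0, from -0.48 with equal totals to -0.19 without vehicle tumor 2, and 7 to 10 genes were below 0. Equal totals moved the median of all genes to -0.16, and 70.8% of genes were then lower in DATS. Relative to all genes, the median of the 10 genes was -0.31 there and -0.34 on the deposited scale. Of the 138 values 11 changed sign, and the cause was not tested. Gsr was at -0.15 with equal totals, -0.064 with quantile normalization, -0.038 with sample weights, -0.049 without vehicle tumor 2 and -0.029 without DATS tumor 1. Gclm was at 0.031 without vehicle tumor 2 and 0.053 without DATS tumor 2. Nqo1 and Osgin1 were at 0.13 and 0.22 without vehicle tumor 3 and at 0.035 and 0.023 without DATS tumor 1. The median correlation of pairs was 0.52 with equal totals, 0.051 within groups and 0.11 to 0.35 with 1 tumor left out, lowest without DATS tumor 1. With 1 tumor left out, Gclm ranged from -0.092 to 0.053, Gsr from -0.049 to 0.092, Nqo1 from -0.50 to 0.13 and Osgin1 from -0.44 to 0.22. With the replicate number as a block 0 genes were called, 594 had an unadjusted p under 0.05 and the median of the 10 genes was -0.34. The SE fell with the block for Akr1b8 (0.63 to 0.25), Hmox1 (0.73 to 0.31), Nqo1 and Osgin1 and rose for the others. The unadjusted limma p of Akr1b8 was then 0.0118 (adjusted p = 0.910). Without vehicle tumor 1 it was 0.0292 for Akr1b8, 0.0275 for Hmox1 and 0.0224 for Txnrd1 (adjusted p = 0.585). Of all 13631 genes, 1131 were then under 0.05 before adjustment, against 797 with all tumors. Equal totals gave 0.0189 for Txnrd1 and 0.0283 for Gclc (adjusted p = 0.649), with 1033 of all genes under 0.05. The unadjusted limma p of Txnrd1 was also 0.0452 with no filter, 0.0407 with quantile normalization and 0.0346 with sample weights. Its adjusted p was 0.870, 0.927 and 0.386 there. In these settings 1037 of 20891, 688 of 13631 and 1663 of 13631 genes were under 0.05 before adjustment. Over all genes tested, tumors of the same number deviated together with r of 0.15, -0.023 and -0.12. Vehicle tumor 2 was most like DATS tumor 3 (0.27). With so few tumors these r cannot show whether the number pairs them, and the labels do not say. Hmox1 and Akr1b8 were low in tumor 1 of each group, and Nqo1 and Osgin1 were highest in tumor 3 of each. A filter at 5 FPKM removed Slc7a11 and Srxn1.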
